A study of Homo sapiens with 6 samples.

Results

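The hedgehog pathway was followed through 9 genes in U251 cells, a long-established line from a human glioma, with and without a small-molecule treatment. They are the co-receptor genes GAS1, CDON and BOC, the receptor gene PTCH1, the signal transducer gene SMO, the inhibitor gene SUFU and the transcription factor genes GLI1, GLI2 and GLI3. The members were chosen by gene symbol, and all 9 were found among the 16832 symbols listed in each library. The treated cells (SLCDS, 3 libraries) received the small-molecule mixture SLCDS for 18 days; its components are not named in the labels, and the series title calls the resulting cells neuronal-like. The control cells (Control, 3 libraries) had received PBS and no SLCDS, and the labels give no culture time for them. All 6 libraries carry the genotype label WT and come from the same cell line. Nothing in the labels says that replicates were separate cultures, so p-values measure the spread between these libraries, which may be technical.

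In hedgehog signalling a secreted ligand (SHH, IHH or DHH) binds PTCH1, which otherwise holds SMO inactive at the primary cilium. Active SMO releases the GLI factors from SUFU, and GLI proteins then switch on targets that include PTCH1 and GLI1 themselves, so these transcripts are widely used as readouts of the pathway. GAS1, CDON and BOC are cell-surface proteins that bind the ligand beside PTCH1 and were shown in mouse embryos to promote the signal. GAS1, a lipid-anchored protein related to the receptors of GDNF, was first isolated as a gene that rises when mouse fibroblasts stop dividing. In the developing nervous system the pathway patterns the neural tube and drives the division of progenitors.

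Values are FPKM, fragments per kilobase of transcript scaled to each library's fragment total, as the authors deposited them, so levels can be compared between genes, except in Control replicate 3, whose values shifted with transcript length. Read from the spacing of low FPKM values, depth was about 16600000 to 17200000 fragments in SLCDS and 16300000 to 17000000 in Control. Fold changes are on the log2(FPKM + 1) scale, where changes of low genes come out too small, and genes were called at an adjusted p under 0.05 in limma, a linear model fitted over 11506 genes. Control replicate 3 stood apart from the other libraries. Its Pearson correlation over genes with the other 5 lay between 0.9701 and 0.9767, against 0.9966 to 0.997 within SLCDS and 0.9969 between Control replicates 1 and 2. Where leaving it out changed the call or direction of a member, both values are given. Markers of glioma and astrocytes (VIM, NES, SOX2, GFAP, S100B and AQP4) summed to 2277 to 2361 FPKM in SLCDS and 2318 to 2757 FPKM in Control, with AQP4 near 0 in both.

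The promoters of GAS1, the member with the largest change, and of PTCH1, the classical GLI target, are shown as the 250 bases before the transcription start, from RefSeq on build GRCh38.p14. The GAS1 stretch lies at chr9:86947507-86947756 and the PTCH1 stretch at chr9:95509267-95509516, both on the minus strand. Capitals mark the GLI binding consensus GACCACCCA, read here on the other strand as TGGGTGGTC.
GAS1: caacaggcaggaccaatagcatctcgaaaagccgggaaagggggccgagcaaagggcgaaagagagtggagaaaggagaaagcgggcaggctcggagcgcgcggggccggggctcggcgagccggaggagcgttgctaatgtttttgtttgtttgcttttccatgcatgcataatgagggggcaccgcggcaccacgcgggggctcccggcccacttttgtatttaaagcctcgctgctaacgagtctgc
PTCH1: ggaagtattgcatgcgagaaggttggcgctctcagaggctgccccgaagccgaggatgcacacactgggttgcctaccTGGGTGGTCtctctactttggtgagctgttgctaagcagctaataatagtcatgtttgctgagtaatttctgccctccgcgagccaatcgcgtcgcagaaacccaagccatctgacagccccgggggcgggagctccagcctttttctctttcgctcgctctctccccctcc

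The consensus was searched on both strands in windows of 250 bases before to 50 bases after each start, and 7 of the 9 members had such a window. It was found in 1 of the 5 PTCH1 windows, beginning 172 bases before the start, and in no other window of a member. Over all genes 83 of 35116 windows (0.236%) held it. The letters are absent from the GAS1 window, which says nothing about binding elsewhere in that gene.

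GAS1 rose in SLCDS. It stood at 251.4, 225 and 240.1 FPKM in SLCDS replicates 1 to 3, against 105, 99.99 and 111 FPKM in Control replicates 1 to 3. Every SLCDS library lay above every Control library, and the groups did not overlap. The means were 239 ± 13.1 FPKM in SLCDS, against 105 ± 5.71 FPKM in Control (SD, n = 3 each), a ratio of 2.27. In limma the log2 fold change was 1.17 with an SE of 0.08 (95% interval 0.98 to 1.37, adjusted p = 0.000615). A call at 2-fold or more in this direction was made for 0.669% of tested genes. By level GAS1 ranked 117 to 127 of 16832 genes in SLCDS and 362 to 456 in Control, and it is the most abundant member in every library. At the estimated depth its values rest on about 10562 to 11972 fragments in SLCDS and 4602 to 5346 in Control. No exon of another gene overlaps GAS1 in GENCODE release 29. In bulk RNA, more cells with GAS1 and more GAS1 per cell cannot be told apart.

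Of the 7 members that reached the expression filter (at least 1 FPKM in 3 or more libraries), GAS1 was called higher, none was called lower and 6 did not pass. Over all tested genes 6.09% were called, 492 of them higher and 209 lower. The median log2 fold change of the 7 members was 0.081, against 0.0004 over all 11506 genes, and -0.027 without Control replicate 3, against 0.0016. GAS1 and SMO, 2 of 7, had groups without overlap, as did 29.1% of all tested genes.

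**Figure D1:**
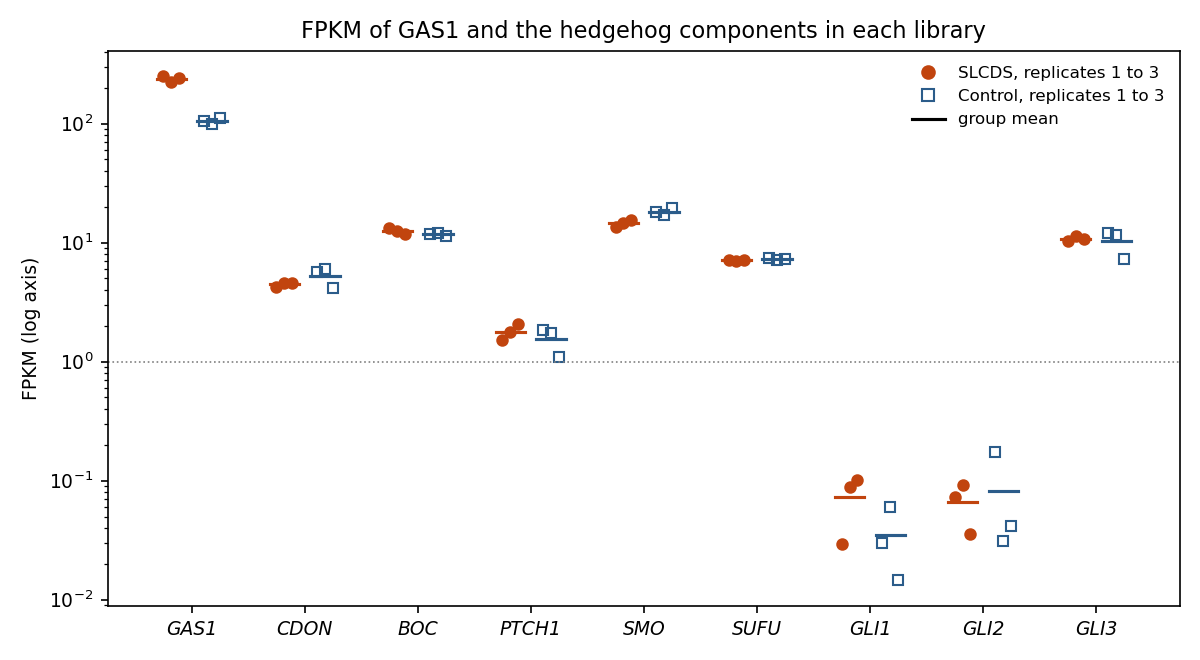
FPKM on a log axis of the 9 members in each library, with SLCDS replicates as filled circles, Control replicates as open squares and group means as bars. The dotted line marks 1 FPKM. GAS1 lies between 225 and 251.4 FPKM in SLCDS, above all Control libraries, while GLI1 and GLI2 lie under 0.2 FPKM in every library.

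The other co-receptors stood far below GAS1. CDON, an immunoglobulin-superfamily protein that binds hedgehog ligands, stood at 4.23, 4.61 and 4.58 FPKM in SLCDS, against 5.65, 6.06 and 4.18 FPKM in Control. Control replicates 1 and 2 lay above all SLCDS libraries and Control replicate 3 below them. The log2 fold change was -0.19 (SE 0.12, 95% interval -0.48 to 0.10; limma, adjusted p = 0.492). Without Control replicate 3 CDON was lower in SLCDS, at -0.33 (SE 0.07; limma, adjusted p = 0.00606). BOC, the close relative of CDON, stood at 13.2, 12.5 and 11.8 FPKM in SLCDS, against 11.9, 12.04 and 11.5 FPKM in Control. The BOC groups overlapped, and its log2 fold change of 0.081 had a 95% interval of -0.09 to 0.25 (limma, adjusted p = 0.627). Exons of BOC share 513 bases with those of CFAP44 on the opposite strand in GENCODE release 29. Whether the counting used strand is not given in the sources used here, so fragments of that stretch cannot be assigned. CFAP44 averaged 5.47 FPKM in SLCDS, against 5.38 FPKM in Control. CDON, PTCH1, SMO and GLI1 also share exon bases with genes on the opposite strand (2831, 711, 129 and 8 bases), while SUFU, GLI2 and GLI3 share none.

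The make-up of the co-receptor transcripts was read from the same GAS1 values, so it is no result apart from the GAS1 rise. Summed over GAS1, CDON and BOC, co-receptor transcripts reached 269, 243 and 257 FPKM in SLCDS, against 122.5, 118 and 127 FPKM in Control. GAS1 made up 93.5%, 92.9% and 93.6% of that sum in SLCDS and 85.7%, 84.7% and 87.7% in Control. The difference of the means was 7.32 percentage points, and the groups did not overlap. The 2-sided exact permutation test over libraries gave p = 0.1, the smallest value that 3 against 3 libraries allow. As GAS1 is most of the sum, its rise alone moves the share, and the test adds no separate evidence. The share also compares transcripts of unlike length, which is uncertain in Control replicate 3.

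Among receptor and transducer genes, PTCH1 stood at 1.51, 1.77 and 2.07 FPKM in SLCDS, against 1.84, 1.74 and 1.09 FPKM in Control. The groups overlapped, with the lowest value in Control replicate 3. Its log2 fold change was 0.13 (SE 0.14, 95% interval -0.19 to 0.46; limma, adjusted p = 0.684), and without Control replicate 3 it was -0.0059 with an interval of -0.22 to 0.21. A PTCH1 difference of up to 0.46 on this scale therefore lies within the interval over all libraries. SMO, the seven-pass protein that carries the signal across the membrane, stood at 13.5, 14.5 and 15.6 FPKM in SLCDS, against 18.0, 16.9 and 19.7 FPKM in Control. Every SLCDS library lay below every Control library. The difference missed the threshold over all libraries (log2 fold change -0.31 with an SE of 0.09; limma, adjusted p = 0.102), and SMO was lower in SLCDS without Control replicate 3 (-0.25, SE 0.06; limma, adjusted p = 0.0159).

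SUFU, the cytoplasmic inhibitor that binds GLI proteins, had the smallest SDs of the 7 tested members in both groups. It stood at 7.21, 7.05 and 7.13 FPKM in SLCDS, against 7.38, 7.18 and 7.34 FPKM in Control, with overlapping groups. Its log2 fold change of -0.030 had a 95% interval of -0.19 to 0.13 (limma, adjusted p = 0.859).

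GLI3, which in the absence of ligand is processed to the main transcriptional repressor of the pathway, was by far the most abundant GLI transcript. It stood at 10.3, 11.4 and 10.7 FPKM in SLCDS, against 12.1, 11.6 and 7.23 FPKM in Control. Control replicate 3 lay below all other libraries and the other Control libraries above all SLCDS libraries. The log2 fold change was 0.092 (SE 0.17, 95% interval -0.32 to 0.50; limma, adjusted p = 0.833), and -0.12 without Control replicate 3 (95% interval -0.25 to 0.0070; limma, adjusted p = 0.148). GLI3 made up 99.0%, 98.4% and 98.7% of the summed GLI FPKM in SLCDS and 98.3%, 99.2% and 99.2% in Control. The 2-sided exact permutation test of that share gave p = 0.6.

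GLI1, the activator that is itself a GLI target, and GLI2, the main activator upstream of it in mouse, lay under the filter in both groups. GLI1 stood at 0.0293, 0.0892 and 0.1004 FPKM in SLCDS, against 0.0302, 0.0605 and 0.0145 FPKM in Control. The ratios between these values, scaled by depth, are those of 2, 6 and 7 fragments in SLCDS and 2, 4 and 1 fragments in Control, taking the smallest whole numbers that fit. The sums of 15 fragments in SLCDS and 7 in Control give a ratio of 2.1 per unit of depth, with an exact 95% interval of 0.806 to 6.09 that covers counting error only. No difference in GLI1 was detected at this depth, and the interval leaves room for one. GLI2 had 12, 15 and 6 fragments in SLCDS and 28, 5 and 7 in Control on the same reading, a ratio of 0.808 (0.494 to 1.31). For GLI2 the longest coding transcript would give 3 to 19 fragments a library at the estimated depth, so these counts are approximate. Without the expression filter, where 3.71% of genes were called higher and 1.24% lower, limma gave adjusted p = 0.508 for GLI1 and adjusted p = 0.896 for GLI2.

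The order of the levels was GAS1, SMO, BOC, GLI3, SUFU, CDON, PTCH1, then GLI1 and GLI2, in SLCDS, and the same with GLI2 before GLI1 in Control. In SLCDS every gene's range lay apart from its neighbour's except for GLI1 and GLI2. In Control the ranges of BOC and GLI3, of GLI3 and SUFU, and of GLI2 and GLI1 overlapped. Without Control replicate 3 the order in Control was the same, and the ranges of GLI3 and SUFU lay apart.

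**Figure D2:**
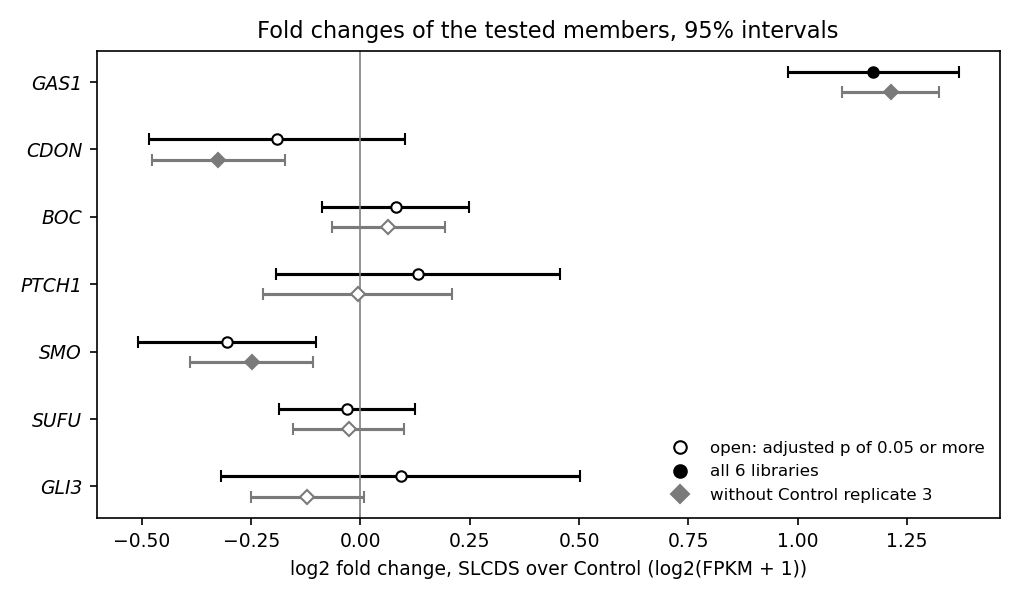
Log2 fold changes of SLCDS over Control on the log2(FPKM + 1) scale for the 7 tested members, with 95% intervals from limma, over all 6 libraries (circles) and without Control replicate 3 (diamonds). Filled symbols have an adjusted p under 0.05. GAS1 is filled in both fits, CDON and SMO only in the fit without Control replicate 3.

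Among the 7 tested members, those with the longest transcripts were lowest in Control replicate 3 relative to the other Controls. Relative to the mean of Control replicates 1 and 2, its FPKM was 0.713 for CDON, 0.612 for PTCH1 and 0.61 for GLI3, whose longest coding transcripts measure 9138, 8232 and 8208 nucleotides. The ratio was 1.01 for SUFU, 0.961 for BOC, 1.13 for SMO and 1.09 for GAS1, at 5001, 4646, 3738 and 2827 nucleotides. Over all tested genes the ratio also fell with length. The median ratio was 1.35 for 2300 genes under 2000 nucleotides, 1.08 for 4441 genes of 2000 to 4000, 0.844 for 3745 genes of 4000 to 8000 and 0.653 for 992 genes of 8000 or more. With each library's trend in length and GC content removed, CDON was lower in SLCDS (log2 fold change -0.29; limma, adjusted p = 0.0101), as was SMO (-0.28; limma, adjusted p = 0.011), and GAS1 was higher by 1.21 (limma, adjusted p = 8.2e-06). In that fit 3 of 7 members were called where 17.5% of all genes were (10.5% higher, with 1200 genes higher and 803 lower), and without Control replicate 3 it was 3 of 7 where 27.7% were (16.0% higher and 11.8% lower). Both shares of members rest on the same 3 genes, GAS1 higher, CDON and SMO lower.

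**Figure D3:**
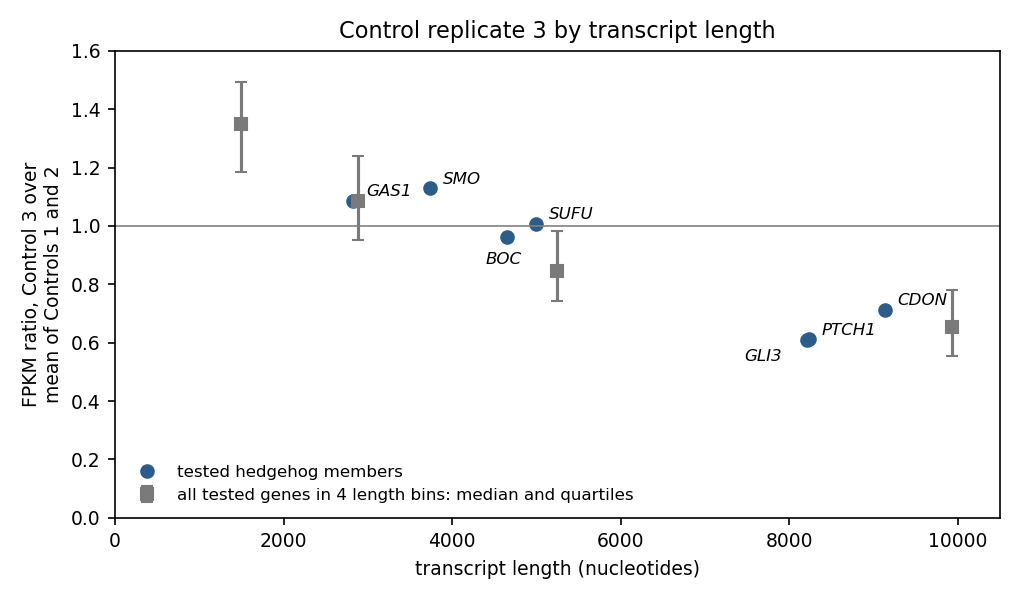
FPKM of Control replicate 3 divided by the mean of Control replicates 1 and 2, against transcript length in nucleotides, for the 7 tested members (circles) and for all tested genes in 4 length bins (squares at the median length, with the median ratio and quartiles). CDON, PTCH1 and GLI3, over 8000 nucleotides long, lie between 0.61 and 0.713.

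The other genes of the pathway were read from lists of ligands, surface regulators, cytoplasmic regulators, cilium genes and targets. Of the 9 genes of ligands and ligand release, 3 reached the filter and SCUBE3 fell, while none rose (over all genes 1.82% were lower and 4.28% higher). SCUBE3, a secreted protein whose relative SCUBE2 helps release lipid-modified ligand from cells, stood at 2.66, 3.39 and 3.29 FPKM in SLCDS, against 11.9, 10.4 and 7.11 FPKM in Control. The groups did not overlap (-1.37 on the log2 scale with SE 0.17; limma, adjusted p = 0.00466). DISP1, the transporter that exports the ligand, stood at 3.96 ± 0.216 FPKM in SLCDS, against 3.36 ± 0.541 FPKM in Control (SD, n = 3 each; limma, adjusted p = 0.417).

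The ligand genes themselves were near the floor. SHH was read as 0, 1 and 2 fragments in SLCDS and 0 in each Control library. IHH had 1, 2 and 7 fragments in SLCDS and 1, 1 and 4 in Control. DHH had 8, 5 and 4 fragments in SLCDS and 10, 8 and 10 in Control, a ratio of 0.595 with an exact 95% interval of 0.305 to 1.13 for counting error. Ligand transcripts thus stayed under 0.2 FPKM in all 6 libraries. Of the ligand genes DHH alone had FPKM ranges that did not overlap, lower in SLCDS, where 29.1% of all tested genes had ranges apart. That share covers genes above the filter, while the ligand genes lie under it, so the 2 are not like for like. SLCDS replicate 1 and Control replicate 2 were both read as 8 DHH fragments, and without the filter limma gave adjusted p = 0.281.

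**Figure D4:**
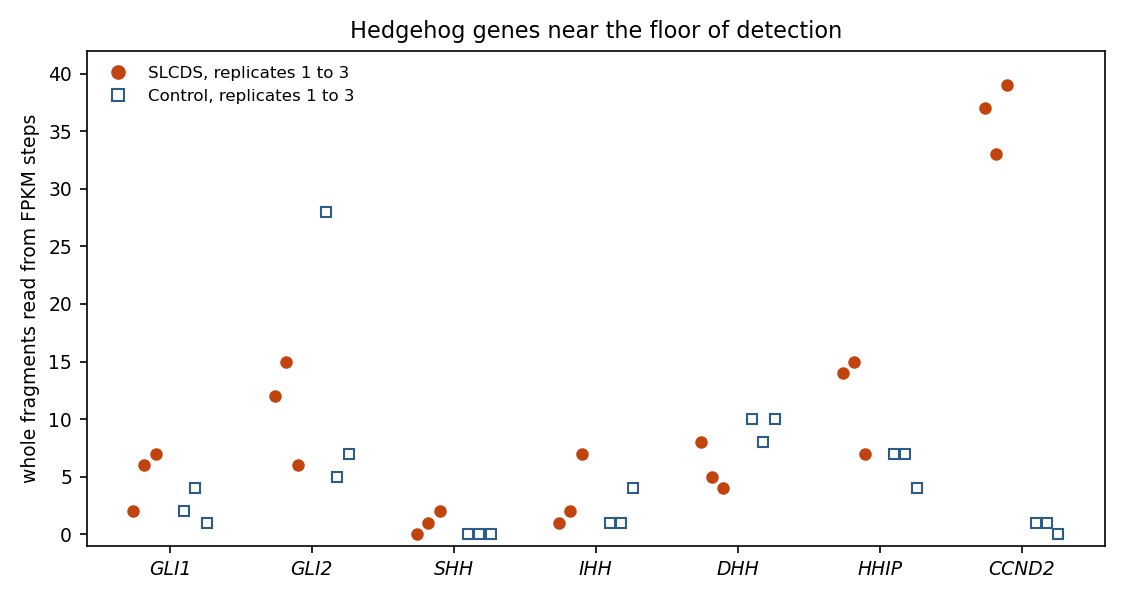
Whole fragments per library, read from the steps between FPKM values, for genes under the expression filter. They are GLI1, GLI2, the ligand genes, and HHIP and CCND2 from the list of GLI targets. SLCDS replicates are filled circles and Control replicates open squares. CCND2, chosen after its values were seen, has 33 to 39 fragments in SLCDS and 0 or 1 in Control. GLI1 has at most 7 in any library.

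None of the 3 tested genes among 7 other surface regulators passed over all libraries, where 6.09% of all tested genes were called. With the length and GC trend removed the glypican gene GPC6 was higher (log2 fold change 0.24, limma adjusted p = 0.0237). In that fit 10.5% of all genes were higher. The glypican gene GPC4 averaged 15.8 ± 0.701 FPKM in SLCDS, against 13.3 ± 2.03 FPKM in Control (SD, n = 3 each; limma, adjusted p = 0.301). The ubiquitin ligase gene MGRN1 averaged 8.23 ± 0.412 FPKM in SLCDS, against 8.67 ± 1.04 FPKM in Control (SD, n = 3 each; limma, adjusted p = 0.801). Both had overlapping groups. HHIP, the decoy receptor induced by GLI proteins, had 14, 15 and 7 fragments in SLCDS and 7, 7 and 4 in Control. Its ratio per unit of depth was 1.96, with an interval of 1.08 to 3.67 for counting error alone, and without the filter limma gave adjusted p = 0.391. GPC5 had 36 fragments in SLCDS and 14 in Control in all, a ratio of 2.52 (1.33 to 5.06 for counting error). For GPC5 limma without the filter gave adjusted p = 0.339.

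Of 23 listed cytoplasmic regulators of SMO and GLI, 21 were tested. None of them passed over all libraries, and none of 20 primary cilium genes did, where 6.09% of all tested genes were called. The kinase regulator gene PRKAR1A averaged 90.6 ± 3.41 FPKM in SLCDS, against 84.1 ± 9.85 FPKM in Control, and the casein kinase gene CSNK1D 63.7 ± 0.451 FPKM in SLCDS, against 69.2 ± 3.34 FPKM in Control (SD, n = 3 each). Of the cilium genes, IFT20 averaged 28.4 ± 2.25 FPKM in SLCDS, against 27.5 ± 4.92 FPKM in Control, and the kinesin gene KIF3B 23.7 ± 0.335 FPKM in SLCDS, against 21.5 ± 2.65 FPKM in Control. These are the most abundant of the list, in which 15 of 20 genes had a log2 fold change below 0 (median -0.11), and 18 of 20 without Control replicate 3. Without Control replicate 3 the cytoplasmic list had 6 genes lower and none higher, and the cilium list 5 lower and 1 higher, where 27.7% of all genes were called. In that fit 11.8% of all genes were lower and 16.0% higher, so the 6 of 21 and 5 of 20 lower genes stand above the share of lower calls over all genes. With the length and GC trend removed, 2 of 21 cytoplasmic and 3 of 20 cilium genes were lower and none was higher. Over all genes 803 of 11478 were lower and 1200 higher in the fit with the trend removed. The cytoplasmic count was thus near the share of lower calls over all genes, and the cilium count above it. Genes lower without Control replicate 3 included STK36, a kinase that acts with SUFU and GLI (log2 fold change -0.46). They also included SPOP (-0.26), the adaptor for GLI degradation, and IFT140 (-0.38) and IFT172 (-0.30) of the intraflagellar transport machinery. STK36, SPOP, IFT140 and IFT172 were chosen after their values were seen.

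The next list held genes known as GLI targets in other tissues, HHIP among them. Of 16 listed, 6 reached the filter. CCND1, FOXM1 and OLIG2 rose in SLCDS, none fell and 3 did not pass, where 4.28% of all tested genes were called higher. The median log2 fold change of the 6 was 0.37. FOXM1, a factor of the mitotic programme, stood at 6.37, 5.83 and 5.73 FPKM in SLCDS, against 2.68, 2.45 and 3.08 FPKM in Control (log2 fold change 0.90 with an SE of 0.09; limma, adjusted p = 0.00188). The cyclin D1 gene CCND1 stood at 22.1, 23.0 and 24.4 FPKM in SLCDS, against 18.4, 18.4 and 16.3 FPKM in Control (log2 fold change 0.37; limma, adjusted p = 0.0374). OLIG2, a glial lineage factor, stood at 3.05, 2.88 and 2.28 FPKM in SLCDS, against 1.21, 1.39 and 1.86 FPKM in Control (log2 fold change 0.59; limma, adjusted p = 0.0388). CCND1 passed in 9 of 17 alternative settings and OLIG2 in 8 of 16, while FOXM1 passed in all 16 it could be fitted in.

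Of the 10 targets under the filter, CCND2, named here after its values were seen, had groups far apart. BCL2 and BMP4 also had groups without overlap, higher in SLCDS (limma without the filter, adjusted p = 0.254 and 0.393). The groups of the other targets overlapped, and SNAI1 was lower in SLCDS (0.116 FPKM, against 0.201 FPKM in Control). Among genes above the filter 29.1% had ranges apart. CCND2, the cyclin D2 gene, stood at 0.339, 0.307 and 0.350 FPKM in SLCDS, against 0.00945, 0.00947 and 0 FPKM in Control. These values correspond to 37, 33 and 39 fragments in SLCDS and 1, 1 and 0 in Control. The ratio per unit of depth was 53.4, with an exact 95% interval of 14.4 to 446 for counting error. Without the expression filter, where 4.95% of 16832 genes were called, limma gave a log2 fold change of 0.40 on the log2(FPKM + 1) scale (SE 0.02, adjusted p = 0.00094).

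A list of proliferation genes, which includes targets of FOXM1, was read beside them. Of 10 tested, 8 rose in SLCDS and none fell, where 4.28% of all tested genes were higher and 1.82% lower. The list summed to 102 to 107 FPKM in SLCDS and 64.2 to 72.2 FPKM in Control. The risers were MKI67 (log2 fold change 1.26), AURKB (1.07), BIRC5 (1.06), TOP2A (0.87), CCNB2 (0.77), MCM2 (0.43), CCNB1 (0.40) and CDK1 (0.39). MKI67, AURKB, BIRC5 and CCNB2 passed in every alternative they could be fitted in, TOP2A in 12 of 17, CDK1 in 10 of 17, CCNB1 in 6 of 17 and MCM2 in 6 of 16. PLK1 and PCNA did not pass over all libraries, and the PCNA groups overlapped. MKI67 stood at 6.32, 7.14 and 6.65 FPKM in SLCDS, against 2.86, 2.52 and 1.43 FPKM in Control. The part of proliferation in the level of FOXM1, CCND1 or GAS1 was not tested.

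Relatives of GAS1 were followed in 2 more lists. In the list of GDNF receptors and ligands, 7 of 10 genes were found in the files and 4 were tested. GFRA1 and NRTN rose and none fell, where 4.28% of all tested genes were higher. GFRA1, the GDNF co-receptor that resembles GAS1, stood at 23.3, 24.7 and 24.3 FPKM in SLCDS, against 16.4, 15.4 and 10.8 FPKM in Control (log2 fold change 0.74 with an SE of 0.14; limma, adjusted p = 0.0267). The neurturin gene NRTN stood at 1.91, 1.70 and 1.68 FPKM in SLCDS, against 0.964, 0.966 and 1.27 FPKM in Control (log2 fold change 0.42; limma, adjusted p = 0.0385). GFRA1 passed in 12 of 17 alternatives and NRTN in 9 of 16. The persephin gene PSPN, at 2.12, 2.93 and 2.41 FPKM in SLCDS, against 2.98, 3.25 and 5.38 FPKM in Control, had groups that did not overlap and did not pass (log2 fold change -0.46; limma, adjusted p = 0.251). RET, the kinase that GDNF co-receptors act through, had 1, 3 and 2 fragments in SLCDS and 0, 1 and 0 in Control. Among 5 tested growth arrest specific genes other than GAS1, a set joined mainly by name, GAS2L1 fell and none rose, where 1.82% of all tested genes were lower. GAS2L1 stood at 19.5, 20.0 and 21.7 FPKM in SLCDS, against 35.5, 29.8 and 44.8 FPKM in Control (log2 fold change -0.80; limma, adjusted p = 0.0194), and it passed in 13 of 17 alternatives. GAS6 averaged 29.03 ± 1.63 FPKM in SLCDS, against 31.5 ± 7.34 FPKM in Control (SD, n = 3 each).

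**Figure D5:**
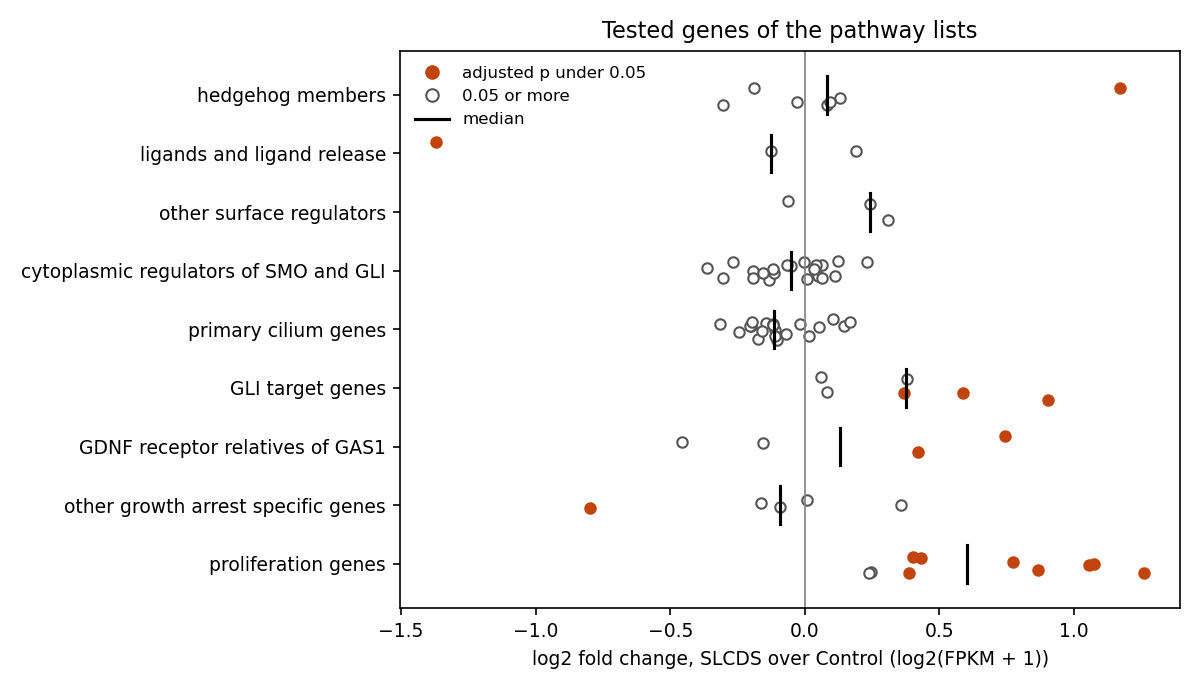
Log2 fold changes of SLCDS over Control on the log2(FPKM + 1) scale for the tested genes of the 9 pathway lists, with filled points at an adjusted p under 0.05 and a bar at each list's median. Of the hedgehog members GAS1 lies at 1.17 and the other 6 between -0.31 and 0.13, SCUBE3 lies at -1.37, and 8 of 10 proliferation genes are filled on the positive side.

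Markers of other cell types were read for the same libraries. Neuron markers summed to 51.1 to 52.5 FPKM in SLCDS and 63.4 to 63.9 FPKM in Control. None of the 3 tested passed over all libraries, where 6.09% of all tested genes were called. Without Control replicate 3 TUBB3 and MAP2 were lower and SNAP25 higher, where 27.7% of all genes were called. TUBB3 averaged 29.5 ± 1.08 FPKM in SLCDS, against 39.4 ± 5.12 FPKM in Control, and MAP2 14.7 ± 0.485 FPKM in SLCDS, against 18.5 ± 4.62 FPKM in Control (SD, n = 3 each), with RBFOX3 near 0. SNAP25 averaged 6.24 FPKM in SLCDS, against 4.85 FPKM in Control. SYN1, under the filter, averaged 0.887 FPKM in SLCDS, against 0.529 FPKM in Control, without overlap (limma without the filter, adjusted p = 0.0452). Fibroblast markers summed to 362 to 369 FPKM in SLCDS and 363 to 395 FPKM in Control, nearly all of it COL1A2, while COL1A1 averaged 0.592 FPKM in SLCDS, against 1.00 FPKM in Control, and DCN was near 0. COL3A1 had 74 fragments in SLCDS and 20 in Control in all, a ratio of 3.62 (2.19 to 6.27 for counting error), and LUM 16 in SLCDS and 1 in Control; without the filter limma gave adjusted p = 0.0593 and 0.0591. Leukocyte markers summed to 3.59 to 4.76 FPKM in SLCDS and 2.78 to 3.13 FPKM in Control, most of it CD68, with PTPRC, AIF1 and CX3CR1 at 0 to 5 fragments a library. Of the endothelial markers CDH5 rose (4.81 ± 0.438 FPKM in SLCDS, against 1.91 ± 0.634 FPKM in Control, limma adjusted p = 0.0106). CDH5 passed in 13 of 16 alternatives, while PECAM1 averaged 0.0781 FPKM in SLCDS, against 0.0666 FPKM in Control. VWF went the other way, with 15 fragments in SLCDS and 26 in Control in all. Its ratio was 0.565 (0.278 to 1.11 for counting error), and without the filter limma gave adjusted p = 0.463. GFAP fell to 135 FPKM in SLCDS, against 339 FPKM in Control (log2 fold change -1.32; limma, adjusted p = 0.000596), and VIM, SOX2, NES and S100B did not pass. NES averaged 254 FPKM in SLCDS, against 216 FPKM in Control, without overlap, and S100B 17.8 FPKM in SLCDS, against 14.0 FPKM in Control. Without Control replicate 3 NES and S100B were higher and GFAP and SOX2 lower. The part of these markers in the level of GAS1 was not tested.

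The 5 tested genes whose log2(FPKM + 1) over the 6 libraries was most like that of GAS1 were FIBCD1, FAM43B, HOXB9, CXCL14 and AKNA. Their Pearson r with GAS1 was 0.9991, 0.9987, 0.9985, 0.9981 and 0.9976. This is a description of 6 libraries that share a difference between groups. FIBCD1, FAM43B and CXCL14 lay under 1 FPKM in every Control library. These 3 genes reached the expression filter only through SLCDS, the group where they are high. The chemokine gene CXCL14 stood at 5.39, 4.87 and 4.73 FPKM in SLCDS, against 0.800, 0.656 and 0.874 FPKM in Control. The homeobox gene HOXB9 stood at 15.2, 14.0 and 15.4 FPKM in SLCDS, against 7.64, 7.51 and 8.03 FPKM in Control. As for GAS1, SLCDS replicate 2 was the lowest of its group for FIBCD1, FAM43B and HOXB9, and Control replicate 2 was the lowest of its group for all 5. The genes were picked for their correlation over these same 6 libraries, a choice that favours such a shared order.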

How the data were processed

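Per the labels' protocols, RNA was isolated with TRIzol and libraries were prepared with a VAHTS Universal V6 kit. The authors deposited 1 file of FPKM values per library. GRCm38 and mm10, which are mouse builds, are named in the submitters' processing notes although cells and gene symbols are human. Aligner, counter and annotation were not given in the sources used here. Sample titles gave the groups and the replicate numbers. The members and the gene lists were chosen with earlier results of these data known. A few pathway genes are not reported here.

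The test covered 11506 genes that reached 1 FPKM in 3 or more libraries. It used limma 3.58.1 (R 4.3.3) on log2(FPKM + 1), 2-sided, with a mean-dependent variance prior, and p-values were adjusted by Benjamini-Hochberg across the 11506 genes. Genes named are all members, every called gene of the other lists, the 2 most abundant genes of a list with fewer than 2 calls, and the 5 genes most correlated with GAS1. Genes named beside these were picked after their values were seen. Fragments of low genes were read as the smallest whole numbers in the ratio of their depth-scaled FPKM, within 0.05 of a whole number. Of 1631 genes above 0 in every library and under 0.6 FPKM, 917 (56.2%) gave such numbers with at most 5 fragments in their lowest library. True counts may be multiples of these. Depth came from 115 such genes with 1 annotated transcript, 44 of which fell in the densest window, so it is approximate. Transcript length and GC content came from GENCODE release 29. Exact intervals on ratios of fragments (Clopper-Pearson) cover counting error only. Alternatives were other pseudocounts, filters, scalings and variance priors, a replicate block, removal of the length and GC trend with splines, and each library left out in turn. The order of levels without Control replicate 3 was added after the data were seen. The procedure was tested on simulated data. Other steps used Python 3.11.15 (scipy 1.17.1, numpy 2.4.6, pandas 2.3.3) and figures matplotlib 3.10.9.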

Additional observations from a re-analysis of the deposited data

How the results depend on the processing

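GAS1 was higher in all 17 alternatives, with log2 fold changes of 1.14 to 1.23 and limma adjusted p values of 3.18e-07 to 0.0101. Of all tested genes 701 were called in the main setting. The count was 324 with a mean FPKM of at least 5, 455 with a replicate block, 2003 with the length and GC trend removed, and 276 to 3191 with 1 library left out, the last without Control replicate 3. Called members numbered 3 with the trend removed and 1 to 3 with 1 library left out, again 3 without Control replicate 3. The difference in GAS1 share was 6.65 to 8.15 percentage points with 1 library left out, and that in GLI3 share -0.486 to -0.0386. Deviations of same-numbered libraries correlated at r of -0.326, 0.36 and 0.065, so 1 of 3 pairs exceeded 0.1 and the numbers were not taken to pair the libraries. Under the block GAS1 kept its call (limma, adjusted p = 0.00515) and the paired sign-flip test of its share gave an exact p = 0.25, the smallest 3 pairs allow. The direction changed without Control replicate 3 for PTCH1 (-0.0059, up to 0.21 with another library left out), GLI3 (-0.12, up to 0.21), GAS6 (0.087, down to -0.18) and COL1A2 (0.0016, down to -0.060). It also changed under quantile normalization for VIM (-0.068) and COL1A2 (0.080). With 1 library left out MGRN1 ranged from -0.14 to 0.012, IFT20 from -0.029 to 0.19 and VIM from -0.040 to 0.12. None of these values passed except IFT20 without Control replicate 3 (0.19; limma, adjusted p = 0.0456). The cause was not tested. No scaling moved the median of all genes by over 0.1. Depth limits GLI1, GLI2 and the ligands, which rest on 0 to 28 fragments a library.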
